A study of Mus musculus with 6 samples.

Results

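Cilium transport and centrosome genes were taken from an RNA-seq comparison of intestinal organoids of Apc Min mice, with 3 libraries of cultures treated with DM-aKG and 3 of control cultures. Organoids are epithelial cells cultured as hollow structures with buds. The Apc Min mouse has a mutated copy of the Wnt antagonist gene Apc and is prone to intestinal tumours, and DM-aKG is a cell-permeable dimethyl ester of α-ketoglutarate. Both groups share the Apc Min genotype, the organoid medium and the tissue, and differ by the agent. The labels do not state the dose, the time, what the controls received or whether replicates came from separate mice, so p-values measure the spread between these libraries, which may be technical. Members were all genes of the table whose symbol starts with Ift, Bbs, Cep or Nphp and a number, together with Tctn1, Tctn2 and Tctn3. There were 65 of 24956 genes: 14 Ift, 8 Bbs, 37 Cep and 6 Tctn and Nphp genes. Their values are RPKM, in which reads are divided by the length of the gene's transcript and by the size of the library.

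A primary cilium is a single antenna of microtubules that grows from the older centriole of a resting cell and carries receptors such as those of Hedgehog signalling. Intraflagellar transport (IFT) moves cargo along it in trains: the IFT-B complex runs outward with kinesin-2, the IFT-A complex returns with dynein-2, and the BBSome is an adaptor that carries membrane proteins. The transition zone, which holds the tectonics, is the gate at the base of the cilium. When a cell divides, the cilium is lost and the same centrioles organise the spindle poles, so many Cep proteins serve both the cilium and the centrosome.

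All called genes of the Ift, Bbs, and Tctn and Nphp classes were lower in DM-aKG, whereas the Cep genes went both ways. A gene was tested where it averaged at least 1 RPKM over the 6 libraries, as 52 members did, and called where limma on log2(RPKM + 0.5) gave an adjusted p under 0.05 over all 10852 tested genes. Of these 52, 8 were higher and 18 lower in DM-aKG. The background was wide: 55.6% of all tested genes were called, 30.9% higher and 24.7% lower, while 15.4% of the tested members were higher and 34.6% lower. The members' median log2 fold change was -0.09, and that of all tested genes was 0.02. By class, 0 Ift genes were higher and 7 of 13 lower, 0 Bbs genes higher and 2 of 3 lower, and 0 Tctn and Nphp genes higher and 4 of 5 lower. The 31 tested Cep genes split into 8 higher, 5 lower and 18 without a call. The median log2 fold change was -0.23 in the Ift, -0.36 in the Bbs, -0.37 in the Tctn and Nphp, and 0.03 in the Cep genes. Of the genes counted as lower, Ift80 and Bbs4 passed the filter only through their control level, and the Bbs median is the value of Bbs4. In a fit without a filter, 5 of 14 Ift, 3 of 8 Bbs and 3 of 5 Tctn and Nphp genes were lower and 0 higher. Of all 18343 genes in that fit, 2832 were lower and 3783 higher. The groups did not overlap in 29 of the 52 tested members, a share to be read beside 64.2% of all tested genes, and every called member was among them. Of all 6033 called genes, 72 had groups that overlapped, so the lack of overlap adds little to a call. Centring each library on its median gene moved the balance of all calls to 2790 higher and 3340 lower, against 3354 and 2679 as reported, and that of the members to 6 higher and 23 lower.

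**Figure D1:**
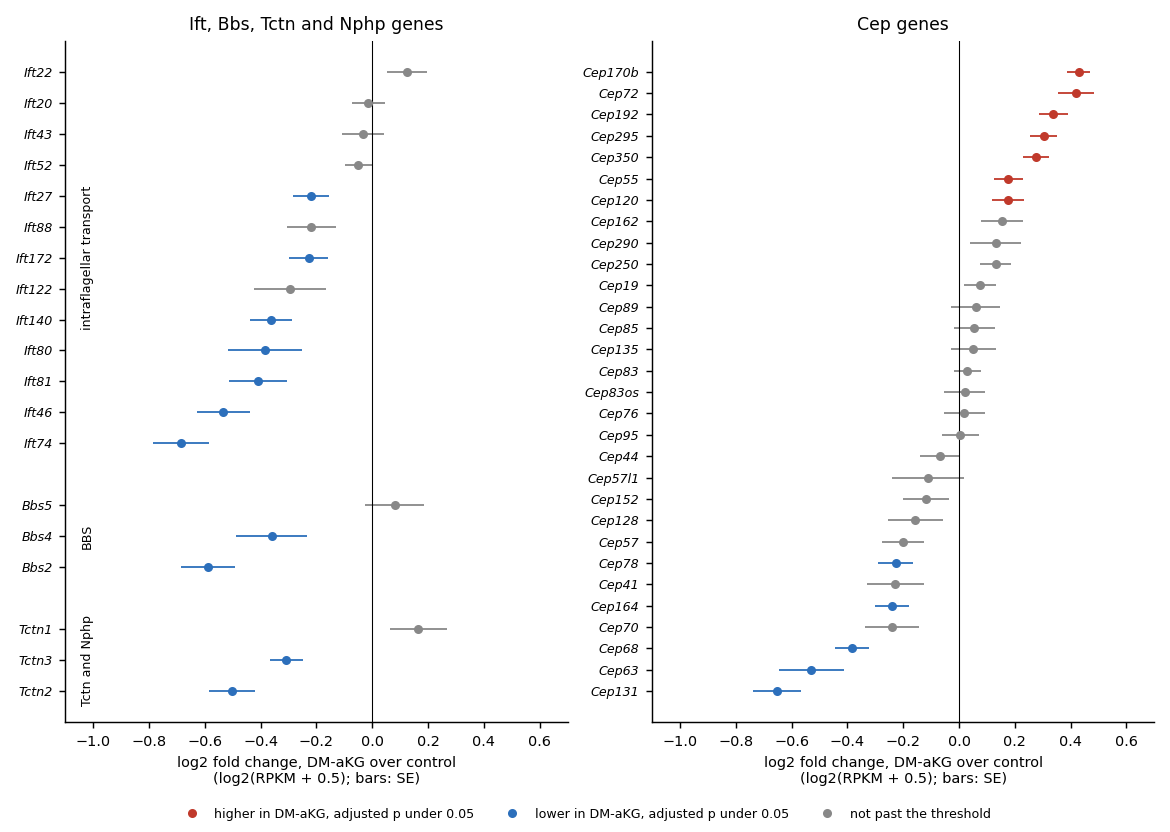
Log2 fold change of DM-aKG over control on the log2(RPKM + 0.5) scale for 49 of the 52 tested members, ordered by size within each class, with bars for the SE of the limma fit and colours for the call at an adjusted p of 0.05. The 11 called genes in the left panel all lie left of 0, from Ift74 at -0.69 to Ift27 at -0.22, while the Cep genes on the right spread from -0.65 (Cep131) to 0.43 (Cep170b).

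The RPKM sum of the libraries was 358636 to 363467 in DM-aKG and 369553 to 374975 in control. Judged by the smallest values of short genes, 1 RPKM in a transcript of 1 kb came from 32.55 to 34.3 reads, which gives a counting error of 17.1% to 17.5%. Fold changes on the log2(RPKM + 0.5) scale understate the change of low genes. The label of an epithelial culture was checked on fixed markers. The epithelial genes Epcam, Cdh1, Krt8, Krt18, Krt19, Vil1 and Cldn7 summed to 3616 to 4539 RPKM in DM-aKG and 2776 to 2826 RPKM in control libraries. Of them 5 were called higher and Epcam lower. Fibroblast and muscle markers (10 genes) summed to 0.31 to 0.79 RPKM in DM-aKG and 0.14 to 0.22 RPKM in control libraries, with Col3a1, Dcn and Lum listed at 0 in every library. Immune markers (8 genes) summed to 1.32 to 1.53 RPKM in DM-aKG and 1.02 to 1.17 RPKM in control, and endothelial and glial markers (6 genes, with Cdh5 and Kdr at 0) to 1.24 to 1.39 RPKM in DM-aKG and 0.57 to 0.75 RPKM in control. Markers of multiciliated cells, 10 in the table with Gmnc at 0, summed to 0.93 to 1.07 RPKM in DM-aKG and 0.56 to 0.74 RPKM in control. Tuft markers (6 genes) summed to 2.74 to 8.82 RPKM in DM-aKG and 2.17 to 2.58 RPKM in control, with Avil alone at 7.56 RPKM in DM-aKG replicate 1. The part of these shifts in the values of the cilium genes was not tested. In bulk RNA, fewer cells with a transcript and less of it per cell cannot be told apart.

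Of the IFT-B genes, Ift74 had the largest fall on the log2(RPKM + 0.5) scale among the tested members. Ift74, whose protein binds tubulin together with that of Ift81, was at 1.63, 1.66 and 1.25 RPKM in DM-aKG replicates 1 to 3, against 2.78, 2.55 and 2.85 RPKM in the controls. Every DM-aKG library lay below every control. The log2 fold change was -0.69 ± 0.10 (SE of the fit; limma, adjusted p = 0.000992). Ift81, its partner, was at 1.71, 1.44 and 1.40 RPKM in DM-aKG and 2.25, 2.40 and 1.89 RPKM in control, and fell by 0.41 ± 0.10 (limma, adjusted p = 0.0117). So both genes of the tubulin-binding pair were lower, with groups that did not overlap. Ift46, a core subunit of the complex, was at 4.71, 3.65 and 3.67 RPKM in DM-aKG and 5.81, 6.31 and 5.87 RPKM in control. It fell by 0.53 ± 0.09 (limma, adjusted p = 0.00230), and the DM-aKG library nearest to the controls was replicate 1. Ift74 lies on chromosome 4, 94614491 to 94693229 (plus strand), of GRCm38.

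The other called IFT-B genes were lower by less or nearer to the threshold. Ift172, the largest IFT-B protein, was at 3.34, 3.09 and 3.24 RPKM in DM-aKG and 3.73, 4.2 and 3.66 RPKM in control (log2 fold change -0.23 ± 0.07; limma, adjusted p = 0.0254). Ift27, a small GTPase that works with the BBSome in the exit of cargo, was at 3.84, 3.81 and 3.84 RPKM in DM-aKG and 4.23, 4.92 and 4.49 RPKM in control (-0.22 ± 0.07; limma, adjusted p = 0.0227). Ift80 was at 1.14, 0.71 and 0.76 RPKM in DM-aKG and 1.21, 1.27 and 1.34 RPKM in control (-0.39 ± 0.13; limma, adjusted p = 0.0390). Ift80 passed the filter on low values only through its control level. The 3 calls rest on single libraries: without control replicate 2, for one, the adjusted p (limma) was 0.0771 for Ift172, 0.0668 for Ift27 and 0.091 for Ift80, and without DM-aKG replicate 2 it was 0.0858, 0.0652 and 0.124. With 1 library left out, 4 to 9 Ift genes were called lower, the 4 being found without control replicate 2 and without DM-aKG replicate 2 or 3.

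The IFT-B genes with the highest levels had no call. Ift20, whose protein also sits at the Golgi and sorts membrane proteins toward the cilium, was the most abundant IFT gene, at 21.42, 20.48 and 19.85 RPKM in DM-aKG and 22.47, 19.59 and 20.38 RPKM in control (log2 fold change -0.01 ± 0.06; limma, adjusted p = 0.854). Ift52, a core subunit, was at 13.02, 13.56 and 13.22 RPKM in DM-aKG and 14.41, 13.78 and 13.11 RPKM in control (-0.05 ± 0.05; limma, adjusted p = 0.400). In both genes the groups overlapped. Ift22, a Rab-like GTPase of the complex, averaged 8.72 ± 0.212 RPKM in DM-aKG and 7.98 ± 0.849 RPKM in control (mean ± SD, n = 3 per group, as throughout), also with overlap. Ift88, the core subunit lost in the Oak Ridge polycystic kidney mouse, was at 3.12, 2.73 and 2.64 RPKM in DM-aKG and 3.04, 3.68 and 3.41 RPKM in control. It missed the threshold (-0.22 ± 0.09; limma, adjusted p = 0.066), and DM-aKG replicate 1 lay above control replicate 1. Without DM-aKG replicate 1 it was called lower (limma, adjusted p = 0.02). Ift57 was below the filter, at no more than 0.23 RPKM in any library.

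Of the 3 IFT-A genes, Ift140, the scaffold of the complex, was called. It was at 3.28, 2.78 and 2.91 RPKM in DM-aKG and 3.78, 4.19 and 3.99 RPKM in control, with groups that did not overlap (log2 fold change -0.36 ± 0.08; limma, adjusted p = 0.00456). Ift122 averaged 1.53 ± 0.255 RPKM in DM-aKG and 1.99 ± 0.338 RPKM in control and missed the threshold (limma, adjusted p = 0.0836). Ift43, the smallest subunit, averaged 8.85 ± 0.203 RPKM in DM-aKG and 9.09 ± 1.01 RPKM in control.

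**Figure D2:**
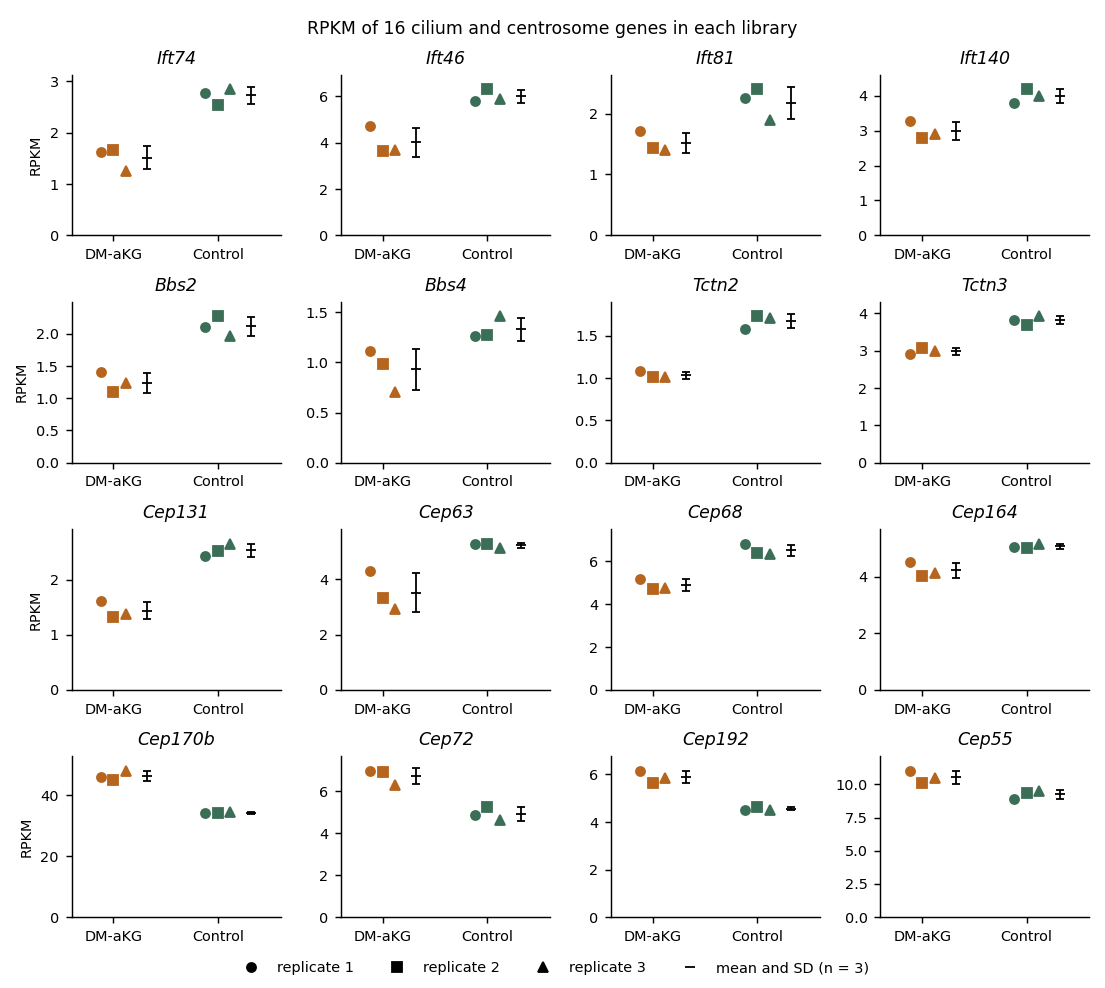
RPKM of 16 members in each library, with a marker for each replicate and the mean and SD beside each group of 3; every axis starts at 0. The DM-aKG libraries lie below all controls in the upper 12 panels (Ift, Bbs, Tctn and 4 Cep genes) and above them in the bottom row (Cep170b, Cep72, Cep192 and Cep55).

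The genes of the BBSome were lowly expressed, and those with a call fell. Bbs2, a subunit of the early assembly core, was at 1.40, 1.09 and 1.23 RPKM in DM-aKG and 2.10, 2.27 and 1.97 RPKM in control, with every DM-aKG library below every control. The log2 fold change was -0.59 ± 0.10 (SE of the fit; limma, adjusted p = 0.00161). Bbs2 lies on chromosome 8, 94067954 to 94098928 (minus strand). Bbs4, a subunit with tetratricopeptide repeats, was at 1.11, 0.98 and 0.71 RPKM in DM-aKG and 1.26, 1.27 and 1.46 RPKM in control (-0.36 ± 0.13; limma, adjusted p = 0.0419). Like Ift80, Bbs4 passed the filter through its control level, its call was lost without any one of 5 libraries, all but DM-aKG replicate 1 (limma, adjusted p of up to 0.139), and it shares 3.2% of its exon bases with Adpgk on the opposite strand. Bbs5, which binds phosphoinositides, was the most abundant Bbs gene and did not go with these: it was at 2.80, 2.96 and 2.31 RPKM in DM-aKG and 2.39, 2.85 and 2.30 RPKM in control (0.08 ± 0.11; limma, adjusted p = 0.539).

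The remaining 5 Bbs genes lay below the filter. Bbs7 was at 0.68, 0.79 and 0.75 RPKM in DM-aKG and 1.09, 1.26 and 1.18 RPKM in control, and Bbs9 at 0.69, 0.44 and 0.41 RPKM in DM-aKG and 1.07, 1.11 and 0.93 RPKM in control. Both encode subunits that join Bbs2 in the assembly core, and in both the groups did not overlap. In the fit without a filter, which called 36.1% of 18343 genes, Bbs7 was lower (log2 fold change -0.43 ± 0.08; limma, adjusted p = 0.00682), as was Bbs9 (-0.61 ± 0.12; limma, adjusted p = 0.01), while Bbs4 no longer passed (limma, adjusted p = 0.0653). Bbs1, the subunit that contacts the GTPase Arl6, averaged 0.233 ± 0.0473 RPKM in DM-aKG and 0.240 ± 0.0173 RPKM in control. The chaperonin-like genes Bbs10 and Bbs12, whose proteins assist BBSome assembly, averaged 0.450 ± 0.104 and 0.477 ± 0.0252 RPKM in DM-aKG and 0.587 ± 0.0751 and 0.647 ± 0.137 RPKM in control, with overlapping groups.

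The tectonic genes Tctn2 and Tctn3 were lower too, while Tctn1 had no call. Tctn2 was at 1.08, 1.01 and 1.01 RPKM in DM-aKG and 1.58, 1.73 and 1.71 RPKM in control (log2 fold change -0.50 ± 0.08; limma, adjusted p = 0.00171). Tctn3 was at 2.90, 3.08 and 2.98 RPKM in DM-aKG and 3.83, 3.70 and 3.92 RPKM in control (-0.31 ± 0.06; limma, adjusted p = 0.00326). These tectonics take part in the gate for membrane proteins, and for both the libraries of each group lay close together and apart from the other group. In Tctn3 the lowest DM-aKG library was replicate 1, unlike in most other members that fell. Tctn1, the third tectonic, was at 1.31, 1.56 and 1.65 RPKM in DM-aKG and 1.20, 1.42 and 1.24 RPKM in control, with overlap (0.17 ± 0.10; limma, adjusted p = 0.200). Tctn1 shares 19.0% of its annotated exon bases with Hvcn1 on the opposite strand, and without knowledge of the strand such reads cannot be told apart.

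Nphp4 is listed at 0 in all 6 libraries. Cep290, a Cep gene whose protein bridges the microtubules and the membrane of the transition zone, was at 1.52, 1.39 and 1.34 RPKM in DM-aKG and 1.37, 1.20 and 1.18 RPKM in control and did not pass (0.13 ± 0.09; limma, adjusted p = 0.25). It shares 7.6% of its exon bases with 4930430F08Rik on the opposite strand.

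RFX factors bind the X-box, a palindromic motif found in many cilium gene promoters. It was searched as GTNNCC, any 2 bases and GGNNAC, which reads alike on both strands, in the RefSeq promoter table of GRCm38.p6 (250 bases before to 50 after each start). The table held 63 promoters of 54 of the 65 members. An X-box stood in 8 of 25 promoters of Ift, Bbs, Tctn and Nphp genes (32%) and in 5 of 38 Cep promoters (13.2%), while 1.88% of all 32851 promoters had one. Among members called lower 2 of 14 promoters had it, among those called higher 0 of 5, and among those not past the threshold 6 of 26. The sites of the cilium genes are shown with up to 8 flanking bases, 5′ to 3′ along the gene's strand and with the X-box in capitals. The bases that the motif fixes are alike in all of them because the search asked for them.
Tctn2: gattggagGTTACCATGGCTACtggtcctc
Bbs4: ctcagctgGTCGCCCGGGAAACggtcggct
Bbs7: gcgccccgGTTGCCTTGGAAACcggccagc
Bbs1: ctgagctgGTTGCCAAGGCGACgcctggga
Tctn1: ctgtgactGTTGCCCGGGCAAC
Nphp4: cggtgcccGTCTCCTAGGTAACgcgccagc
Ift57: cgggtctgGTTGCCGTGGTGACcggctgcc
Ift22, first site: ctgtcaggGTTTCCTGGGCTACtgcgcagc
Ift22, second site: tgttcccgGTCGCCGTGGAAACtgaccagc
Tctn2 and Bbs4 were called lower, Ift22 and Tctn1 were tested and not called, and Bbs7, Bbs1, Ift57 and Nphp4 lay below the filter. The site of Tctn2 ended 48 bases before the start, and those of Ift22 49 and 19 bases before it. In Bbs4, Bbs1 and Tctn1 the site lay just after the start. The Cep genes with an X-box were Cep19, Cep44, Cep83, Cep83os and Cep112; Cep83 and Cep83os start close together on opposite strands and share the same site.

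The whole promoter of Tctn2 is shown as that of a called gene with an X-box (capitals), chr5:124598499-124598798, plus strand.
Tctn2: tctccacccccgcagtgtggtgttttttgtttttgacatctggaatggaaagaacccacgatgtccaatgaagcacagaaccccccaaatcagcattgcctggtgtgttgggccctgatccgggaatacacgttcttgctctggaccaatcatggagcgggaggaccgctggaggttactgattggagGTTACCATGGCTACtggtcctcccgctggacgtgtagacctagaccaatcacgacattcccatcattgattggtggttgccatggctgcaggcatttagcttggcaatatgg
It also held CCAAT, on either strand, at 5 places, and the half-site GTTGCC at 1, where 37.4% and 12.5% of all promoters held these motifs. GTTGCC, which can lie within an X-box, was in 12 of 25 promoters of Ift, Bbs, Tctn and Nphp genes (48.0%) and 9 of 38 Cep promoters (23.7%).

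The 5 Cep genes that fell were Cep131, Cep63, Cep68, Cep164 and Cep78. Cep131, a protein of the centriolar satellites that stands in contact with the BBSome, was at 1.61, 1.32 and 1.38 RPKM in DM-aKG and 2.43, 2.53 and 2.66 RPKM in control. The log2 fold change was -0.65 ± 0.09 (SE of the fit; limma, adjusted p = 0.000571). Cep131 lies on chromosome 11, 120064430 to 120086827 (minus strand). Cep63, which helps place Cep152 around the parent centriole, was at 4.29, 3.34 and 2.91 RPKM in DM-aKG and 5.29, 5.28 and 5.13 RPKM in control (-0.53 ± 0.12; limma, adjusted p = 0.00587). The DM-aKG libraries of Cep63 lay far apart and the controls close together, with SDs of 0.706 RPKM in DM-aKG and 0.0896 RPKM in control. Cep63 shares 2.5% of its exon bases with Anapc13 on the opposite strand. Cep68, a component of the linker that holds both centrioles together, was at 5.20, 4.69 and 4.74 RPKM in DM-aKG and 6.83, 6.38 and 6.34 RPKM in control (-0.38 ± 0.06; limma, adjusted p = 0.00129).

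Cep164 and Cep78 fell by smaller amounts. Cep164, the distal appendage protein that docks the centriole for the growth of a cilium, was at 4.52, 4.01 and 4.12 RPKM in DM-aKG and 5.03, 5.01 and 5.16 RPKM in control (log2 fold change -0.24 ± 0.06; limma, adjusted p = 0.0108). Cep78, a protein of the centriole wall, was at 3.65, 3.62 and 3.62 RPKM in DM-aKG and 4.01, 4.44 and 4.57 RPKM in control (-0.23 ± 0.06; limma, adjusted p = 0.0173), a call lost without any one of DM-aKG replicates 2 and 3 and control replicates 2 and 3 (limma, adjusted p of up to 0.0756). The distal appendage genes Cep83 and Cep89 had no call: Cep83 averaged 9.26 ± 0.433 RPKM in DM-aKG and 9.06 ± 0.0351 RPKM in control, and Cep89 5.73 ± 0.721 RPKM in DM-aKG and 5.46 ± 0.325 RPKM in control. The opposite-strand transcript Cep83os, which the symbol rule also takes in and which codes for no Cep protein, averaged 2.70 ± 0.0985 RPKM in DM-aKG and 2.66 ± 0.208 RPKM in control.

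Cep170b, Cep72, Cep192, Cep295, Cep350, Cep55 and Cep120 were among the Cep genes that rose. Cep170b, a paralogue of the subdistal appendage gene Cep170, was the most abundant member, at 46.07, 44.92 and 48.01 RPKM in DM-aKG and 34.13, 34.05 and 34.67 RPKM in control. It rose by 0.43 ± 0.04 (limma, adjusted p = 0.000128), with a gap between the groups far wider than the spread within either. Cep170b lies on chromosome 12, 112720455 to 112746592 (plus strand). Cep170 itself was below the filter, at 0.81, 0.99 and 1.07 RPKM in DM-aKG and 0.53, 0.61 and 0.61 RPKM in control, and was higher in the fit without one (log2 fold change 0.42 ± 0.09; limma, adjusted p = 0.0126). Cep72, a satellite protein, was at 6.96, 6.89 and 6.30 RPKM in DM-aKG and 4.85, 5.24 and 4.61 RPKM in control (0.42 ± 0.07; limma, adjusted p = 0.00128). Cep192, the scaffold that recruits Plk4 to centrioles and Aurora A to spindle poles, was at 6.15, 5.65 and 5.86 RPKM in DM-aKG and 4.52, 4.62 and 4.51 RPKM in control (0.34 ± 0.05; limma, adjusted p = 0.00135). In each of these genes all DM-aKG libraries lay above all controls.

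Cep295, needed for a new centriole to become a centrosome, was at 6.38, 6.37 and 6.06 RPKM in DM-aKG and 5.02, 4.98 and 4.96 RPKM in control (log2 fold change 0.30 ± 0.05; limma, adjusted p = 0.00152). It shares 10.9% of its exon bases with the antisense gene Gm16568. Cep350 averaged 11 ± 0.231 RPKM in DM-aKG and 9.01 ± 0.357 RPKM in control (0.28 ± 0.05; limma, adjusted p = 0.00201). Both genes rose, with groups that did not overlap. The smallest called rises were those of Cep55 and Cep120. Cep55, which brings the abscission machinery to the midbody at the end of cell division, was at 11.02, 10.10 and 10.47 RPKM in DM-aKG and 8.87, 9.39 and 9.52 RPKM in control (0.18 ± 0.05; limma, adjusted p = 0.0214). Its call was lost on centring (limma, adjusted p = 0.0631), without DM-aKG replicate 3 (0.0551) and without control replicate 1 (0.0736). Cep120, which promotes the elongation of centrioles, averaged 5.53 ± 0.110 RPKM in DM-aKG and 4.84 ± 0.244 RPKM in control (limma, adjusted p = 0.0291) and was also lost on centring (limma, adjusted p = 0.0756) and without control replicate 2 (0.0832) or 3 (0.0688) or DM-aKG replicate 2 (0.0599) or 3 (0.0755).

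The CHR element TTTGAA, known from promoters of genes of mitosis, showed a different spread. On either strand it was in 0 of 25 promoters of Ift, Bbs, Tctn and Nphp genes and in 11 of 38 Cep promoters (28.9%), against 17.9% of all promoters. It was in 4 of 5 promoters of Cep genes called higher (Cep295, Cep72 and both of Cep55) and in 1 of 14 of members called lower (Cep164). The promoters of Cep55 overlap and hold the same element, so by gene it was in 3 of 4. The other Cep genes among the 8 called higher had no promoter in the set. By gene it was in 9 of 31 Cep genes, beside 5466 of all 27025 genes. The E2F site, searched on both strands as TTT, 2 bases that are each C or G, and CGC, was in 3 of 63 member promoters (4.76%) and in 2.26% of all. The promoter of Cep55 is shown with its CHR element, on the opposite strand, in capitals, chr19:38054791-38055090, plus strand.
Cep55: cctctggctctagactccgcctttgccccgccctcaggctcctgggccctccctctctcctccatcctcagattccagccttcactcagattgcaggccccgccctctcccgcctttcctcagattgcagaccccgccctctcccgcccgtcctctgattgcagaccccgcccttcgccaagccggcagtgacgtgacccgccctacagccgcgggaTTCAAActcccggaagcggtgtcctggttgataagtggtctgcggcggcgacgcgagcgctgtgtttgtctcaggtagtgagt
These matches are descriptions of letters and were not tested as binding sites.

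Sorted by role, 3 of 9 tested genes of centriole duplication and elongation were higher (Cep192, Cep295 and Cep120) and Cep63 was lower. These shares of 33.3% higher and 11.1% lower stand beside 30.9% and 24.7% of all tested genes. Cep152, the partner of Cep63 and Cep192 in recruiting Plk4, was at 1.83, 1.63 and 1.6 RPKM in DM-aKG and 1.97, 1.89 and 1.76 RPKM in control, with overlap (log2 fold change -0.12 ± 0.08; limma, adjusted p = 0.253). Of 4 tested appendage genes, Cep164 alone was called. Among 16 tested Cep genes of the linker, the satellites and other sites, 4 were higher (25%) and 3 lower (18.8%). Cep57, the second most abundant Cep gene and a protein of the pericentriolar material, was at 11.21, 9.62 and 9.26 RPKM in DM-aKG and 12.25, 11.19 and 11.28 RPKM in control (-0.20 ± 0.08; limma, adjusted p = 0.0531); it was called lower on centring. In Cep250, Cep41 and Cep70 the groups did not overlap and the genes still missed the threshold: Cep250 averaged 4.09 ± 0.130 RPKM in DM-aKG and 3.69 ± 0.0208 RPKM in control, Cep70 3.95 ± 0.575 RPKM in DM-aKG and 4.73 ± 0.194 RPKM in control. Cep250 shares 11.1% of its exon bases with 6430550D23Rik on the opposite strand. The Cep genes below the filter besides Cep170 were Cep112, Cep126, Cep295nl, Cep85l and Cep97, none above 0.70 RPKM in any library. In the fit without a filter, Cep112 was lower in DM-aKG (log2 fold change -0.26 ± 0.07, limma, adjusted p = 0.0289). It averaged 0.183 RPKM in DM-aKG and 0.32 RPKM in control, and the groups did not overlap. Cep126, Cep295nl, Cep85l and Cep97 had no call in that fit.

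**Figure D3:**
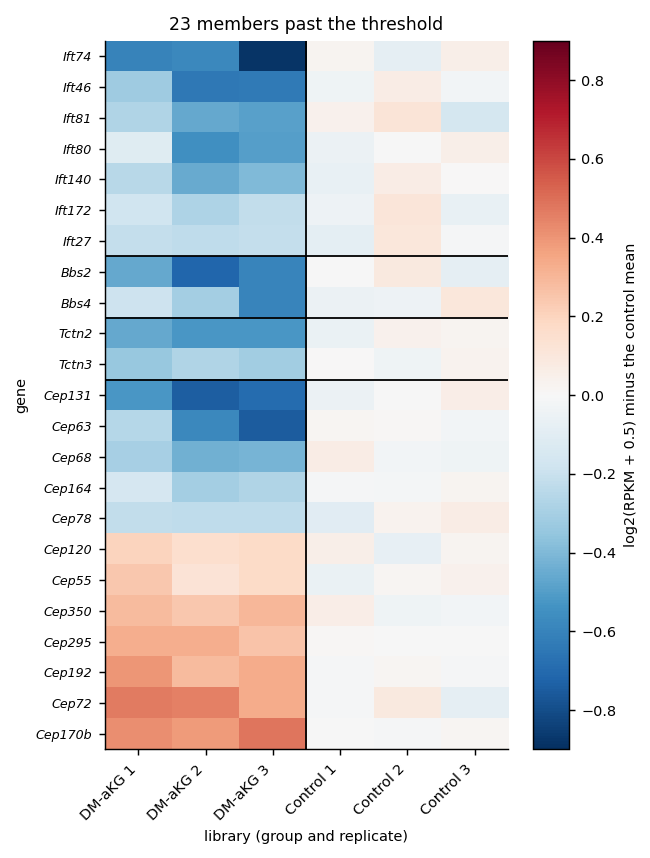
Difference of each library from the control mean on the log2(RPKM + 0.5) scale for 23 of the 26 called members (rows, grouped by class) in the 3 DM-aKG and 3 control libraries (columns). Blue is below and red above the control mean; among the lower genes the column of DM-aKG replicate 1 is paler than those of replicates 2 and 3, with medians of -0.27, -0.46 and -0.49.

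The fall of the members differed in depth between the DM-aKG libraries. Over the 18 lower members, the median difference from the control mean was -0.27 in DM-aKG replicate 1, -0.46 in replicate 2 and -0.49 in replicate 3. In 15 of the 18, replicate 1 was the highest of the 3 DM-aKG libraries. The same library also stood highest in 70.8% of all genes called lower, where the medians were -0.27, -0.38 and -0.38. Over the 8 higher members the medians were 0.31, 0.28 and 0.29. Leaving that library out gave 9 higher and 25 lower members, with 9 lower Ift and 9 lower Cep genes. Leaving out DM-aKG replicate 2 or control replicate 2 gave 12 lower members. The libraries of a group correlated at 0.990 to 0.997 across tested genes, and those of different groups at 0.957 to 0.971.

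The parts of the same machines that carry other symbols were read from lists. Of 16 tested IFT and motor genes, 2 were higher and 10 lower, with a median log2 fold change of -0.30. The shares were 12.5% higher and 62.5% lower, beside 30.9% and 24.7% of all tested genes. Kifap3, the subunit that joins the kinesin-2 motor to cargo, averaged 1.73 ± 0.148 RPKM in DM-aKG and 3.24 ± 0.233 RPKM in control (-0.75 ± 0.08; limma, adjusted p = 0.000257). Wdr34, an intermediate chain of dynein-2, averaged 3.84 ± 0.202 RPKM in DM-aKG and 5.97 ± 0.593 RPKM in control, and Dync2li1, a light intermediate chain of the same motor, 1.49 ± 0.282 RPKM in DM-aKG and 2.89 ± 0.136 RPKM in control. Both genes fell, by 0.57 ± 0.08 and 0.77 ± 0.11. The members of the list that rose were the kinesin-2 motor gene Kif3a, at 4.39 ± 0.184 RPKM in DM-aKG and 3.45 ± 0.0300 RPKM in control, and the dynein light chain gene Dynlrb1, which also serves cytoplasmic dynein.

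Among 14 tested genes of other BBS and Arl proteins, 2 were higher and 6 lower (median log2 fold change -0.15). In this list 57.1% were called and 42.9% were lower, against 55.6% and 24.7% of all tested genes. Pde6d, which ferries lipid-modified proteins, rose to 11.4 ± 0.160 RPKM in DM-aKG, against 7.95 ± 0.437 RPKM in control. Trim32, a ubiquitin ligase gene also known as BBS11, averaged 6.64 ± 0.263 RPKM in DM-aKG and 9.46 ± 0.613 RPKM in control, and Arl3, the GTPase that releases such cargo in the cilium, 5.81 ± 0.598 RPKM in DM-aKG and 8.84 ± 1.1 RPKM in control; both fell. Of 13 tested transition zone genes, 1 was higher and 4 lower (median -0.12). That was 38.5% called and 30.8% lower, near or below the shares over all tested genes for calls and near that for falls. Tmem107 averaged 2.73 ± 0.244 RPKM in DM-aKG and 3.92 ± 0.229 RPKM in control, B9d1 1.59 ± 0.503 RPKM in DM-aKG and 2.92 ± 0.0551 RPKM in control, and Iqcb1 1.21 ± 0.151 RPKM in DM-aKG and 1.64 ± 0.111 RPKM in control, all lower by limma.

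Centriole and pericentriolar genes went both ways, beside 30.9% higher and 24.7% lower among all tested genes. Of 28 tested genes of centrioles and appendages, 7 were higher and 4 lower (median log2 fold change -0.02). Ccp110, which caps the end of the centriole and holds back the growth of a cilium, had the largest rise of the list, at 4.19, 4.50 and 4.53 RPKM in DM-aKG and 1.90, 1.6 and 1.61 RPKM in control (1.16 ± 0.08; limma, adjusted p = 3.21e-05). Ninl, a centrosomal gene of microtubule anchoring, fell, at 0.91, 0.53 and 0.66 RPKM in DM-aKG and 1.91, 2.22 and 1.81 RPKM in control (-1.06 ± 0.14; limma, adjusted p = 0.000504). Ninl also passed the filter only through its control level. Haus2, a subunit of augmin, averaged 9.66 ± 0.136 RPKM in DM-aKG and 7.77 ± 0.154 RPKM in control. Of 20 tested pericentriolar and satellite genes, 8 were higher and 4 lower (median 0.07). Aurka, the kinase that matures spindle poles and drives the disassembly of cilia, averaged 29.9 ± 0.857 RPKM in DM-aKG and 20.3 ± 0.406 RPKM in control. Tubg1, the γ-tubulin gene, averaged 21.5 ± 2.40 RPKM in DM-aKG and 14.03 ± 0.273 RPKM in control, and Ckap5 18.5 ± 1.13 RPKM in DM-aKG and 14.3 ± 0.368 RPKM in control, all 3 higher by limma.

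Of 24 genes of mitosis and cytokinesis, 16 were higher, 0 lower and 8 without a call (median log2 fold change 0.28). The cytokinesis genes Anln, Prc1 and Kif23 averaged 14.96 ± 0.422, 31.2 ± 1.17 and 23.0 ± 1.59 RPKM in DM-aKG, against 9.06 ± 0.301, 22.5 ± 0.587 and 16.6 ± 0.379 RPKM in control. In that list the share called higher was 66.7%, against 30.9% of all tested genes. Cep55, which acts beside these cytokinesis genes, rose with a smaller change than Anln, Prc1 or Kif23.

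**Figure D4:**
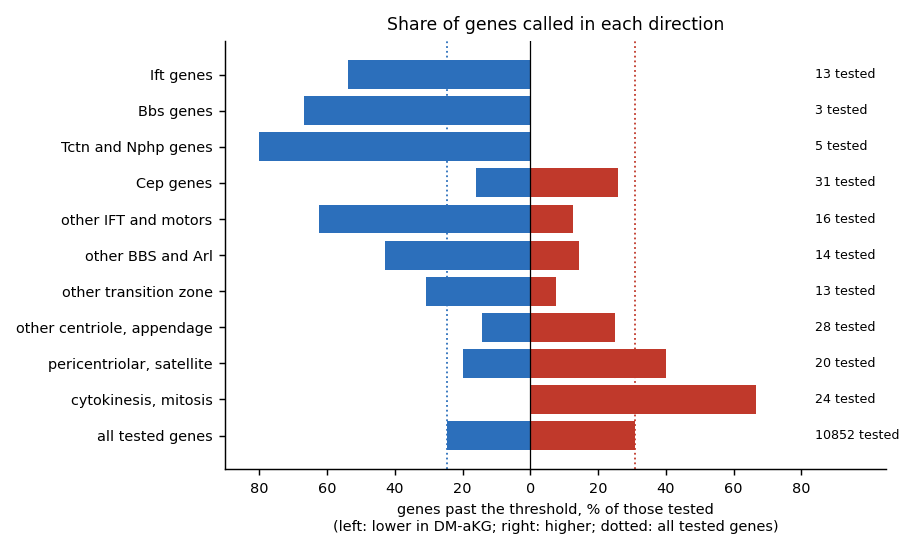
Share of tested genes called lower (bars to the left) and higher (bars to the right) in DM-aKG, in percent, for the 4 member classes, 6 lists of related genes and all tested genes, with the number tested at the right and dotted lines at the shares over all tested genes. The Ift, Bbs, Tctn and Nphp bars extend to the left side alone, and the bar of cytokinesis and mitosis to the right side alone.

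Genes that control or use cilia went both ways. Of 9 tested transcription factor and Hedgehog genes, 2 were higher and 4 lower, with 11 below the filter. That was 22.2% higher and 44.4% lower, beside 30.9% and 24.7% of all tested genes. Smo, the Hedgehog transducer that acts in the cilium, averaged 0.620 ± 0.0889 RPKM in DM-aKG and 1.90 ± 0.267 RPKM in control (log2 fold change -1.09 ± 0.12; limma, adjusted p = 0.000218), and Ihh, the Hedgehog ligand of the gut epithelium, 30.4 ± 2.09 RPKM in DM-aKG and 18.6 ± 0.453 RPKM in control (0.69 ± 0.06; limma, adjusted p = 6.85e-05). Smo passed the filter through its control level alone. The Hedgehog genes Ptch1 and Sufu were also called lower (-0.43 ± 0.07 and -0.33 ± 0.07). Gli2 and Hhip were listed at 0 in every library, and Gli1 and Gli3 at no more than 0.01 RPKM. Hedgehog signalling itself was not tested. Rfx5, known for the control of MHC class II genes, averaged 4.51 ± 0.137 RPKM in DM-aKG and 2.96 ± 0.162 RPKM in control. Rfx3, a factor of ciliogenesis, averaged 1.34 RPKM in DM-aKG and 1.41 RPKM in control (limma, adjusted p = 0.641), and Foxj1, the factor of motile cilia, 0.297 RPKM in DM-aKG and 0.0933 RPKM in control, below the filter. Rfx2, also below the filter, averaged 0.267 ± 0.107 RPKM in DM-aKG and 0.723 ± 0.095 RPKM in control, with groups that did not overlap. Rfx1 and Rfx7 were tested and had no call. The gene Tulp3 stands in both this list and that of IFT.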

How the data were processed

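The authors deposited RPKM values with 2 decimals for 24956 genes named by symbol, with column names equal to the sample titles. The submitters' processing notes name the tools HISAT2 2.0.4, CASAVA 1.8 and Partek and the build mm10. The annotation, the strand of counting and the handling of multiply mapped reads were not given in the sources used here. RPKM were analysed as log2(RPKM + 0.5) by a two-sided test in limma 3.58.1 (R 4.3.3; eBayes with trend, no replicate term), for 10852 genes with a mean of at least 1 RPKM over the 6 libraries, with Benjamini-Hochberg adjustment over these genes. The fit was run on simulated data with independent noise and few changed genes. These data differ in that most tested genes were called, so that run checks the code and not these calls. Depth was estimated from genes of at most 150 bases in RefSeq, where single reads give steps in RPKM; 86.0% to 92.1% of the other low values came out whole, within 0.05 reads, at the chosen depth. Intervals from it would cover counting error only.

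The members and lists were chosen with earlier results of these data known. Values in every library are given for called members with the largest changes in each class (up to 4 each way), the 2 most abundant of each class, and a fixed set of well-known members; of each list, up to 3 called genes with the smallest p. Other genes were named after their values were seen, and some members are not reported here by name. Positions are from GENCODE M21 on GRCm38, the assembly mm10 names; all 65 members had 1 position, and 10 shared exon bases with a gene of the table on the opposite strand. Computations used Python 3.11.15, pandas 2.3.3 and matplotlib 3.10.9.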

Additional observations from a re-analysis of the deposited data

How the results depend on the processing

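Over 17 alternatives, 18 of the 26 called members (6 of 8 higher, 12 of 18 lower) kept their direction and their call in each in which they were tested, and no called member changed direction. Among the 8 calls lost in some alternative were Ift27, Ift80, Ift172, Bbs4, Cep55, Cep78 and Cep120. Without one library, 6 to 9 members were higher and 12 to 25 lower, with 4 to 9 lower and 0 to 1 higher Ift genes, 1 to 3 lower Bbs genes, and 6 to 9 higher and 4 to 9 lower Cep genes. The lower Ift genes numbered 4 without DM-aKG replicate 2 or 3 or control replicate 2. Array weights gave 13 higher members, 8 lower Cep genes, 1 higher Ift gene and 1 higher Tctn or Nphp gene; the fit without both DM-aKG replicate 1 and control replicate 2 also gave 1 higher Tctn or Nphp gene. With a filter at 3 RPKM, 32 members were left, with 8 higher and 9 lower, beside 3007 higher and 2268 lower of all 9273 genes tested. Their median log2 fold change was then -0.005, and that of all tested genes 0.028. The lower members held 4 Ift genes, 0 of the Bbs genes (none was left to test) and 1 Tctn or Nphp gene. The falls no longer counted were those of members that averaged under 3 RPKM. Median centring gave 8 lower Cep genes. Rescaling to an equal RPKM sum left 1 lower Bbs gene. Across alternatives the adjusted p (limma) of Bbs4 reached 0.139 and that of Ift80 0.124. The labels do not state whether the replicate numbers pair the libraries. The deviations of same-numbered libraries correlated at -0.083, -0.114 and 0.011, and those of differently numbered libraries at -0.033 to 0.1. Such deviations sum to 0 within each group, so these values cannot decide whether cultures were paired. With the replicate number as a block, 8 members were higher and 17 lower, with 1 lower Bbs gene and 5 lower Ift genes; the block ended the calls of Bbs4, Ift80 and Ift172. Ift20, not called, turned to 0.025 with an equal sum and ranged from -0.0839 to 0.0411 on the log2 scale with libraries left out (0.0112 without DM-aKG replicate 3), and Ift52 to 0.0019 with array weights; the cause was not tested. Genes near 1 RPKM rest on few reads per kilobase.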
